A study of Mus musculus with 12 samples.

Results

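Endoglin and the receptors of the TGF-beta and BMP family were followed across 4 sorted fractions of mouse embryos. Members were all probes that the scanner files assign to Eng, Tgfbr3, Acvrl1, Acvr1, Bmpr1a, Tgfbr1, Tgfbr2, Bmpr2, Acvr2a or Acvr2b, which gave 18 probes of 10 genes among the 41174 probes (27745 gene names, accessions included) of the array. Cells came from whole embryos of CD-1 mice at embryonic day 7.5, pooled from 25 litters (about 300 embryos), and were stained with antibodies against the surface proteins Endoglin and Flk1. The sort, with no other treatment, gave cells that carried neither protein (Eng-Flk1-), Flk1 alone (Eng-Flk1+), both proteins (Eng+Flk1+) or Endoglin alone (Eng+Flk1-). Each fraction had 3 samples of 3000 cells, each hybridised to its own 1-colour array after PCR amplification of its cDNA. All samples share that 1 pool, so p-values measure only how the sorted samples of that pool varied, which may be technical variation.

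Signals of this family pass through pairs of receptors. A type II receptor binds ligand and phosphorylates a type I receptor, which then phosphorylates Smad proteins that enter the nucleus. Endoglin and betaglycan (Tgfbr3) are co-receptors without kinase activity that present ligand to these pairs, and Endoglin with ALK1 (Acvrl1) is known for its role in vessel formation and in the emergence of blood from mesoderm.

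Each probe is a 60-base oligonucleotide, and 14 of the 18 were designed to a reference mRNA and 4 to a cDNA clone. The probes of Acvrl1, Tgfbr1 and Acvr2b listed here read spliced transcripts, since their positions in build mm8 span more bases than the probe holds; the Tgfbr2 probe is shown as the member with the widest spread within a fraction among those detected on every array. They are printed 5′ to 3′ in lower case throughout.
Acvrl1, chr15:100965117-100965409, plus strand: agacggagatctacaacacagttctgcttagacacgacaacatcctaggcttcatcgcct
Tgfbr1, chr4:47428126-47431784, plus strand: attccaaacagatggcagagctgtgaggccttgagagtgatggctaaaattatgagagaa
Acvr2b, chr9:119277251-119278606, plus strand: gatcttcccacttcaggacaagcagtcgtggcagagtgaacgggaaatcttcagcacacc
Tgfbr2, chr9:115958776-115958835, minus strand: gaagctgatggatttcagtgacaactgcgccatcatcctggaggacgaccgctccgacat

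Levels are log2 signals minus the 75th percentile of the array, on which scale 0 is that percentile, and a difference of 1 is a doubling; levels of different probes are not compared. A probe was tested if it was well above background (a flag of the scanner software) on all 3 arrays of at least 1 fraction. Of the 18 receptor probes, 16 were tested and 11 were well above background on all 12 arrays; no receptor spot was saturated or marked as an outlier. The Eng-Flk1- arrays stood apart from the rest. On them 66.2% to 75.9% of probes were well above background, against 80.1% to 83.2% on the other 9 arrays, and pairs of them correlated at 0.645 to 0.685 across probes, against 0.783 to 0.895 within the other fractions. The median SD of the receptor probes was also widest there, at 1.37 (1.09 over all tested probes), against 0.847 in Eng-Flk1+ (0.625), 0.965 among Eng+Flk1+ arrays (0.732) and 0.707 for Eng+Flk1- (0.630). The arrays lay on 3 slides: slide 1 held all of Eng-Flk1- and replicate 1 of Eng-Flk1+, slide 2 held the other Eng-Flk1+ arrays with replicates 1 and 2 of Eng+Flk1+, and slide 3 held replicate 3 of Eng+Flk1+ with all of Eng+Flk1-. Slide and fraction can therefore be told apart only in part.

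ALK1 and the BMP receptor ALK3 (Bmpr1a) were the members that passed the test. Acvrl1 rose in both Flk1 positive fractions over Eng-Flk1-, and Bmpr1a rose in all 3 other fractions over Eng-Flk1-. The fitted model (limma, adjusted over all 33142 tested probes, threshold 0.05) called 2 of 16 receptor probes higher in Eng-Flk1+ than in Eng-Flk1- and none lower; 2.61% of all probes were called and 2.34% called higher. Eng+Flk1+ compared with Eng-Flk1- again had 2 called higher (3.03% of all probes called, 2.6% higher). Eng+Flk1- had 1 called higher over Eng-Flk1- (2.01% called, 1.77% higher). At an unadjusted p under 0.05 the receptor counts were 3 for Eng-Flk1+ (18.1% of all probes), 5 for Eng+Flk1+ (16%) and 2 for Eng+Flk1- (14.9%), so the first and last were close to the share of all probes. Among the 5 was a Tgfbr2 probe (chr9:115936735-115936794) tested only through its detection in Eng+Flk1+, so it adds no support to that count. The median log2 fold of the 16 over Eng-Flk1- was 0.94 for Eng-Flk1+, 0.70 for Eng+Flk1+ and 0.06 for Eng+Flk1-, beside 0.02, 0.04 and 0.04 over all tested probes. Some of the 16 were tested only through detection in a single fraction. For the weaker Bmpr1a probe and the tested Acvr2a probes it was Eng-Flk1+. For that Tgfbr2 probe it was Eng+Flk1+, and for the clone-derived Tgfbr2 probe Eng+Flk1-. The medians also count probes of the same gene separately, so they are no support for a shift of the family. All 3 comparisons over Eng-Flk1- share its arrays.

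Probes whose arrays did not overlap between 2 fractions were counted too. Over Eng-Flk1-, 2 of the 16 were higher without overlap for Eng-Flk1+ (11.7% of all probes), 4 for Eng+Flk1+ (10.2%) and 2 for Eng+Flk1- (10.3%). Eng+Flk1+ had 4 above Eng+Flk1- (7.86%) and 1 above Eng-Flk1+ (6.88%), and Eng-Flk1+ had 1 above Eng+Flk1- (7.99%).

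None was called between the 3 fractions that carry at least 1 of the proteins. In Eng+Flk1+ against Eng-Flk1+, 0 of 16 passed (limma, 0.0332% of all probes) and 1, Eng, had an unadjusted p under 0.05 (5.01% of all probes). In Eng+Flk1+ against Eng+Flk1-, 0 passed (limma, 0.341% of all probes) and 3 had an unadjusted p under 0.05 (6.9% of all probes), namely Eng, Tgfbr3 and Acvrl1. In Eng-Flk1+ against Eng+Flk1-, 0 passed (limma, 0.124% of all probes), and 0 had an unadjusted p under 0.05 (5.73% of all probes). Without the 3 Eng-Flk1- arrays in the model, a setting chosen after seeing the data, these counts were again 0. Effects of Flk1 and Endoglin are here differences between sorted fractions. Averaged over both Endoglin states, the effect of Flk1 passed for 1 probe, that of Acvrl1, which was higher (1.76% of all probes called, 1.48% higher), and 4 had an unadjusted p under 0.05 (12.7% of all probes). The average effect of Endoglin passed for 0 (limma, 0.456% of all probes; 3 with unadjusted p under 0.05, against 9.26% of all probes). The interaction of both markers passed for 0 (limma, 0.549% of all probes; 1 with unadjusted p under 0.05, against 11.2% of all probes).

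**Figure D1:**
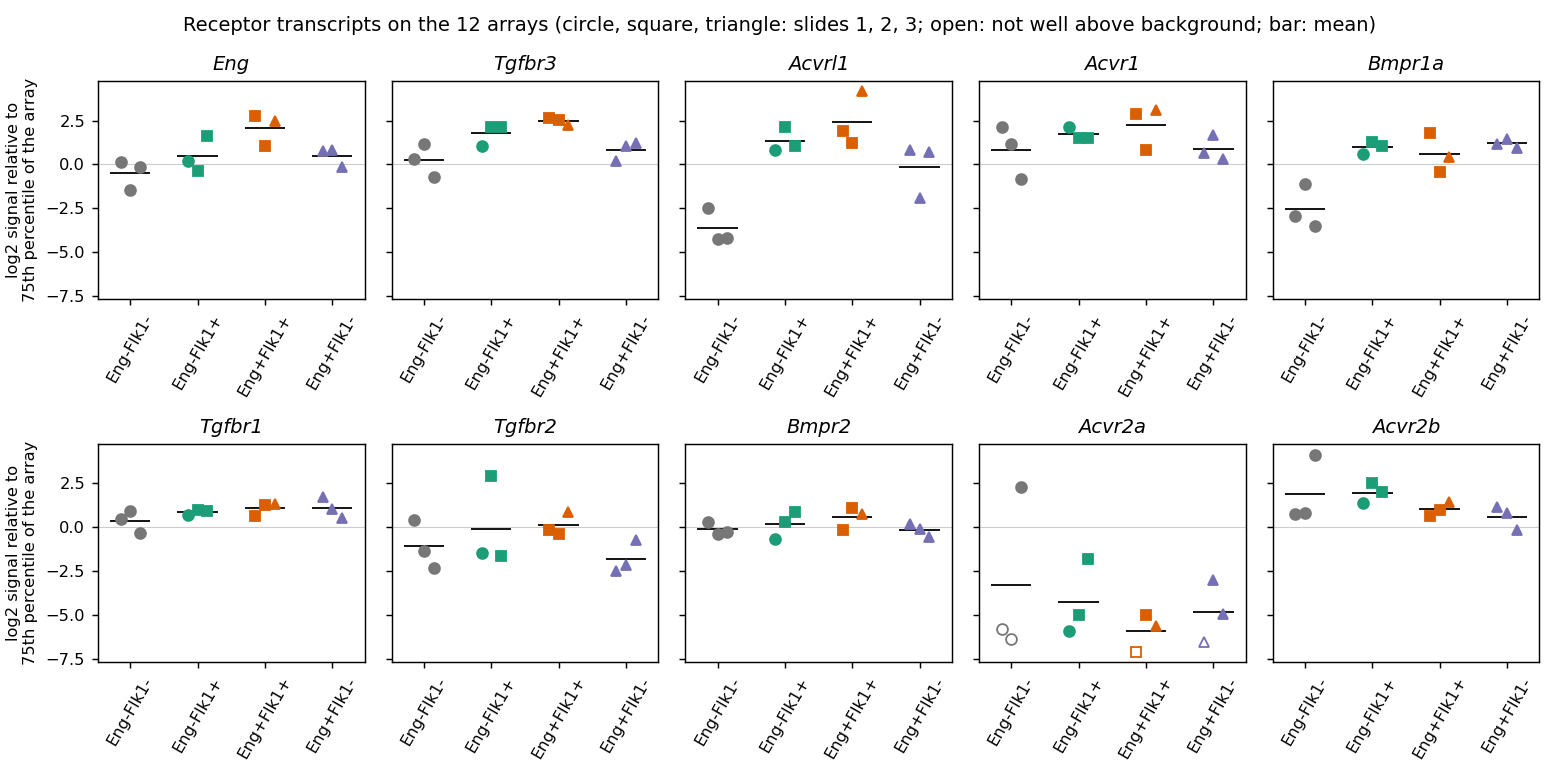
Log2 signal relative to the 75th percentile of each array for 1 probe of each gene; points are arrays, shaped by slide, open where not well above background, and bars are means of 3 arrays. Acvrl1 and Bmpr1a lie lower on every Eng-Flk1- array than on any array of the other fractions, and Eng is highest in mean in Eng+Flk1+.

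The sort was checked on the Flk1 transcript first. Both Kdr probes were higher on every Flk1 positive array than on any Flk1 negative array, with mean log2 differences of 7.16 ± 0.69 (limma adjusted p = 0.000878) and 6.54 ± 0.74 (0.00189). The sizes are not exact, since only some Flk1 negative arrays were well above background: 1 of 3 for Eng-Flk1- and 2 of 3 for Eng+Flk1- on the first probe, and 1 of 3 for each on the second. With slide as a block these differences were 7.01 and 6.52 and missed the threshold (0.0660 and 0.0986).

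Eng transcript was highest in mean where both proteins were gated, and Eng+Flk1- arrays overlapped both Endoglin negative fractions. Its levels were 0.13, -1.47 and -0.12 in Eng-Flk1-, and 0.20, -0.36 and 1.62 in Eng-Flk1+. Eng+Flk1+ arrays gave 2.76, 1.04 and 2.49, and Eng+Flk1- arrays 0.75, 0.84 and -0.16. The Eng+Flk1+ arrays were above all arrays of Eng-Flk1- and Eng+Flk1-, and overlapped Eng-Flk1+ through replicate 3 of the latter. In mean the order was Eng+Flk1+ (2.10 ± 0.93, SD, n = 3), Eng-Flk1+ (0.49 ± 1.02), Eng+Flk1- (0.48 ± 0.55) and Eng-Flk1- (-0.49 ± 0.86), and no neighbours in this order differed past the threshold. Eng+Flk1+ exceeded Eng-Flk1- by 2.59 ± 0.70 (SE, limma adjusted p = 0.0869). This difference passed with slide as a random block (2.64, limma adjusted p = 0.00769). In that setting the fitted correlation within slides was negative (-0.199), and 12.4% of all probes were called, against 3.03% in the model used. It did not pass with slide as a fixed block (1.96 ± 1.44, 0.992). Among Flk1 negative cells the Endoglin gate gave a difference of 0.97 ± 0.70 (0.559). On slides that held both fractions, Eng+Flk1+ was 1.27 above Eng-Flk1+ (2 against 2 arrays) and 2.02 above Eng+Flk1- (1 against 3). The probe lies at chr2:32503799-32503858 on the plus strand. In bulk samples such as these, fewer cells of a type and less RNA per cell cannot be told apart.

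Tgfbr3 encodes betaglycan, a co-receptor that presents TGF-beta ligands, and its highest mean was also in Eng+Flk1+, with less spread than Eng. The probe (chr5:107349188-107349247, minus strand) gave 0.34, 1.14 and -0.74 in Eng-Flk1- and 1.07, 2.16 and 2.14 in Eng-Flk1+. It gave 2.67, 2.56 and 2.25 in Eng+Flk1+ and 0.17, 1.04 and 1.20 in Eng+Flk1-. All Eng+Flk1+ arrays lay above all arrays of the other fractions, the only receptor probe of the 16 tested for which that held against Eng-Flk1+. The mean in Eng+Flk1+ was 2.50 ± 0.22, that in Eng-Flk1+ 1.79 ± 0.62, that in Eng+Flk1- 0.80 ± 0.55 and that in Eng-Flk1- 0.25 ± 0.95 (SD, n = 3), and no neighbours in this order differed past the threshold. Eng+Flk1+ exceeded Eng-Flk1- by 2.25 ± 0.57 (limma adjusted p = 0.0675) and the mean Flk1 effect was 1.62 ± 0.41 (0.0855). Both missed the threshold, and both passed without replicate 2 of Eng-Flk1- (2.70, adjusted p = 0.0272, and 1.84, 0.0352). The first also passed with an intensity trend in the model (0.0475). Both passed with slide as a random block (0.00381 and 0.00429), where 12.4% and 8.47% of all probes were called. As a fixed block, slide reduced the first to 1.30 (0.992).

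Acvrl1 encodes ALK1, the type I receptor for BMP9 and BMP10 on endothelium, and had the widest range of any receptor probe detected on all 12 arrays. Its levels were -2.49, -4.25 and -4.22 in Eng-Flk1-, and 0.83, 2.14 and 1.05 in Eng-Flk1+. They were 1.90, 1.20 and 4.20 in Eng+Flk1+, and 0.84, -1.92 and 0.70 in Eng+Flk1-. Every Eng-Flk1- array lay below every other array, and every Eng+Flk1+ array lay above every Eng+Flk1- array. The order in mean was Eng+Flk1+ (2.43 ± 1.57, SD, n = 3), Eng-Flk1+ (1.34 ± 0.70), Eng+Flk1- (-0.13 ± 1.55) and Eng-Flk1- (-3.65 ± 1.01). None of the neighbouring pairs in that order differed past the threshold. Over Eng-Flk1-, Acvrl1 rose by 6.08 ± 0.96 in Eng+Flk1+ (limma adjusted p = 0.00782, 67.8-fold, 95% interval of the log2 fold 3.95 to 8.22). In Eng-Flk1+ the rise was 4.99 ± 0.96 (0.0229, 31.8-fold, 2.86 to 7.12). The mean Flk1 effect was 3.77 ± 0.68 (0.0202). Eng+Flk1- exceeded Eng-Flk1- by 3.53 ± 0.96 without passing (0.106). Nor did Eng+Flk1+ pass against Eng+Flk1- (2.56 ± 0.96, 0.559) or against Eng-Flk1+ (1.09 ± 0.96, 0.999).

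The slide bore on the Acvrl1 folds, and so did single arrays. Within slide 1, the Eng-Flk1+ array was 4.48 above the mean of the 3 Eng-Flk1- arrays, within slide 3 the Eng+Flk1+ array was 4.32 above the 3 Eng+Flk1- arrays, and within slide 2 Eng+Flk1+ differed from Eng-Flk1+ by -0.04. The calls ended with slide as a block: Eng+Flk1+ over Eng-Flk1- was 4.43 ± 1.64 (limma adjusted p = 0.719), Eng-Flk1+ over Eng-Flk1- was 4.48 ± 1.24 (0.285) and the mean Flk1 effect was 4.40 ± 0.87 (0.126). The difference of 3.53 between Eng+Flk1- and Eng-Flk1-, which share no slide, became 0.11 ± 2.05. As a random block, slide left it at 3.95, past the threshold (0.00401), where 14.3% of all probes were called. Eng+Flk1+ and Eng-Flk1- share no slide either, which leaving out single arrays does not address. The call in Eng+Flk1+ over Eng-Flk1- held whichever array was left out (highest adjusted p 0.0289), and ended with array weights (6.12, 0.0573). That in Eng-Flk1+ over Eng-Flk1- ended without replicate 3 of Eng-Flk1- (4.71, 0.0572) or without replicate 1, 2 or 3 of Eng-Flk1+ (5.25, 0.0660; 4.59, 0.0798; 5.13, 0.0762), and with median scaling (4.39, 0.0552), normexp background correction (3.56, 0.0648) or array weights (4.77, 0.110). The mean Flk1 call ended without replicate 2 or 3 of Eng-Flk1+ (3.57, 0.0527; 3.85, 0.0529).

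**Figure D2:**
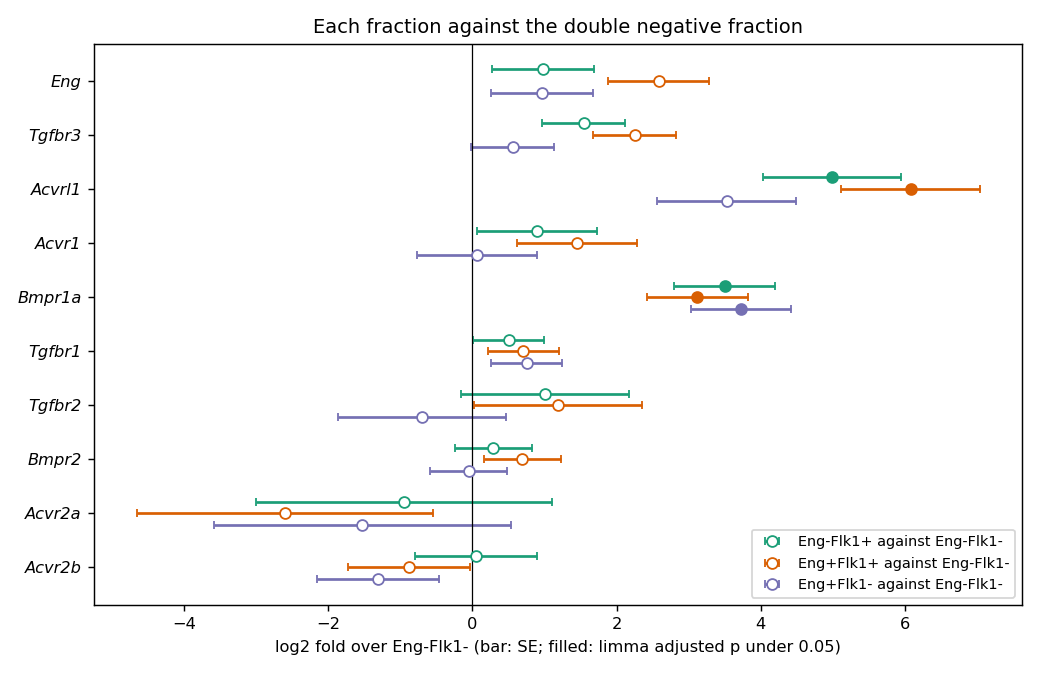
Log2 fold of each other fraction over Eng-Flk1- for 1 probe of each gene, with SE bars; filled points have a limma adjusted p under 0.05. Filled points are those of Acvrl1 in both Flk1 positive fractions (4.99 and 6.08) and of Bmpr1a in all 3 fractions (3.50, 3.12 and 3.73).

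Bmpr1a encodes ALK3, a type I receptor for BMP2 and BMP4 that mesoderm formation requires. Its brighter probe (chr14:33243596-33243655, minus strand) gave -2.93, -1.14 and -3.49 in Eng-Flk1- and 0.63, 1.28 and 1.04 in Eng-Flk1+. Eng+Flk1+ arrays gave 1.77, -0.41 and 0.44, and Eng+Flk1- arrays 1.20, 1.47 and 0.96. The Eng-Flk1- arrays were lowest throughout, and the other 3 fractions overlapped one another. Over Eng-Flk1-, Bmpr1a rose by 3.73 ± 0.70 in Eng+Flk1- (limma adjusted p = 0.0254, 13.2-fold), by 3.50 ± 0.70 for Eng-Flk1+ (0.0266, 11.3-fold) and by 3.12 ± 0.70 for Eng+Flk1+ (0.0403, 8.70-fold). Between the fractions with 1 marker, Eng-Flk1+ minus Eng+Flk1- was -0.23, with a 95% interval of -1.77 to 1.32. The interaction was -4.11 ± 0.99 and missed the threshold (0.119), passing without replicate 2 of Eng-Flk1- (-4.80, 0.0254).

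The rises of Bmpr1a kept their direction in every setting tried and often lost their call. With median scaling they were 3.16 in Eng+Flk1-, 2.90 in Eng-Flk1+ and 2.53 for Eng+Flk1+ and missed the threshold (limma adjusted p = 0.0566, 0.0612 and 0.0893), as they did with array weights (0.0915, 0.0860 and 0.126) and with only the fractions compared in the model (0.0962, 0.0833 and 0.225). With slide as a block they measured 3.43 ± 1.81, 3.15 ± 1.09 and 2.67 ± 1.44 in the same order (1.00, 0.424 and 0.973). The 1 slide with both sides gave 3.15 for Eng-Flk1+ over Eng-Flk1-. In Eng+Flk1- the call ended without replicate 3 of Eng-Flk1- (3.24, 0.0532) or replicate 1, 2 or 3 of Eng+Flk1- (3.73, 0.0774; 3.60, 0.0911; 3.85, 0.0729). In Eng-Flk1+ it ended without replicate 1 or 3 of Eng-Flk1- (3.30, 0.0558; 3.01, 0.0589) or replicate 1, 2 or 3 of Eng-Flk1+ (3.68, 0.0744; 3.35, 0.0847; 3.47, 0.101). In Eng+Flk1+ it ended on leaving out any array other than replicate 2 of Eng-Flk1- or replicate 2 of Eng+Flk1+ (adjusted p 0.0553 to 0.133, folds 2.54 to 3.20). The second Bmpr1a probe (chr14:33240245-33240304) had no call. It was well above background on 9 of 12 arrays, and it averaged -4.81 in Eng-Flk1-, -2.84 for Eng-Flk1+, -5.08 for Eng+Flk1+ and -4.75 for Eng+Flk1-. Its folds over Eng-Flk1- were 0.06 ± 1.60 for Eng+Flk1- (0.991), 1.97 ± 1.60 for Eng-Flk1+ (0.537) and -0.28 ± 1.60 for Eng+Flk1+ (0.956).

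**Figure D3:**
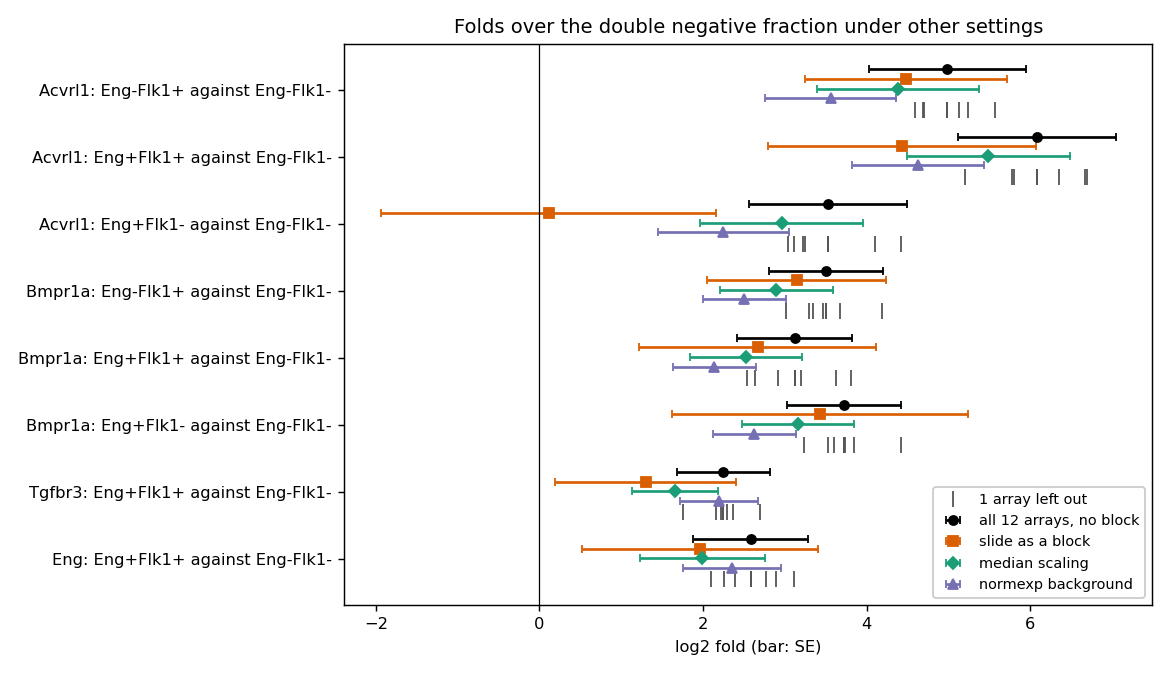
Log2 folds with SE over Eng-Flk1- from the model on all 12 arrays (black circles) and with slide as a block, median scaling or normexp background correction; ticks are folds with 1 array left out. All Bmpr1a folds stay above 2, while the Acvrl1 fold in Eng+Flk1- moves from 3.53 to 0.11 with slide as a block.

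The other 2 type I receptors passed in none of the 9 comparisons (limma). Tgfbr1, which encodes ALK5, the receptor for TGF-beta, read 0.47, 0.94 and -0.33 in Eng-Flk1- and 0.69, 1.00 and 0.90 in Eng-Flk1+ on its spliced probe. It read 0.64, 1.25 and 1.31 in Eng+Flk1+ and 1.74, 1.05 and 0.55 in Eng+Flk1-. Replicate 3 of Eng-Flk1- was the lowest array, and all fractions overlapped. Its widest difference, Eng+Flk1- over Eng-Flk1-, was 0.75 ± 0.49 (limma adjusted p = 0.511) with a 95% interval of -0.33 to 1.84. Acvr1, which encodes the BMP receptor ALK2 (chr2:58262571-58262630, minus strand), read 2.15, 1.17 and -0.84 in Eng-Flk1- and 2.13, 1.52 and 1.52 in Eng-Flk1+. It read 2.91, 0.83 and 3.10 in Eng+Flk1+ and 0.66, 1.71 and 0.30 in Eng+Flk1-. The fractions overlapped, and Eng+Flk1+ over Eng-Flk1- was 1.45 ± 0.84 (0.438).

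Of the type II receptors, 0 of the 8 tested probes passed in any of the 9 comparisons. Tgfbr2, the receptor for TGF-beta, gave 0.39, -1.33 and -2.31 in Eng-Flk1- and -1.49, 2.90 and -1.66 in Eng-Flk1+ on the probe printed above. Eng+Flk1+ arrays gave -0.17, -0.40 and 0.86 and Eng+Flk1- arrays -2.48, -2.16 and -0.73. Replicate 2 of Eng-Flk1+ was the highest of the 12 arrays, and the 2 fractions sorted as Endoglin positive did not overlap (1.89 ± 1.17, limma adjusted p = 0.938). Its second probe (chr9:115936735-115936794) was well above background on all 3 arrays of Eng+Flk1+ alone, at -2.96, 0.05 and -0.70, and differed from Eng-Flk1- by 3.53 ± 1.54 (0.299). Both of these Tgfbr2 probes had their highest mean in Eng+Flk1+, with no call, and they did not correlate over the 12 arrays (r = -0.03). The second was tested only through its detection in Eng+Flk1+, so its high mean there is no support for the first. The clone-derived one, well above background on 7 arrays, had its lowest mean in Eng+Flk1+ (-5.79).

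Bmpr2, the type II receptor for BMPs, had the narrowest range of the receptor probes on its reference mRNA probe (chr1:59814978-59815037), 1.77 over the 12 arrays. Eng-Flk1- arrays read 0.27, -0.38 and -0.26, and Eng-Flk1+ arrays -0.66, 0.28 and 0.87. Eng+Flk1+ arrays read -0.17, 1.11 and 0.76, and Eng+Flk1- arrays 0.16, -0.13 and -0.56. All 4 fractions overlapped, and the widest difference was 0.74 ± 0.53 for Eng+Flk1+ over Eng+Flk1- (limma adjusted p = 0.994), with a 95% interval of -0.44 to 1.92. The 2 clone-derived Bmpr2 probes passed in no comparison or were not tested.

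Acvr2b, an activin receptor, read 0.78, 0.82 and 4.13 in Eng-Flk1- and 1.36, 2.51 and 2.00 in Eng-Flk1+. It read 0.65, 0.99 and 1.46 in Eng+Flk1+ and 1.16, 0.80 and -0.16 in Eng+Flk1-. Replicate 3 of Eng-Flk1- was the highest array here, and Eng-Flk1+ lay above Eng+Flk1- without overlap (1.36 ± 0.84, 1.00). Acvr2a, the other activin receptor, was near background: its 3 probes were well above background on 8, 7 and 2 arrays. The same replicate 3 of Eng-Flk1- read 2.31 on the clone-derived Acvr2a probe (chr2:48638056-48638115), where the other arrays read -7.10 to -1.84.

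Probes of 1 gene did not follow one another across arrays. Over the 12 arrays, pairs of receptor probes of the same gene correlated at -0.42 (Tgfbr1) to 0.17 (Bmpr1a), beside 0.88 for the 2 Kdr probes, in a description over arrays that share fraction, slide and pool. The Kdr pair is not a like comparison. Each Kdr level averages 10 spots, and each receptor level is 1 spot. Kdr, the gene of a sorting marker, also varied more over the 12 arrays (SD 3.91 and 3.67) than the Tgfbr1 pair (0.52 and 0.87). In every receptor pair but that of Tgfbr1, detected on all 12 arrays, at least 1 probe was under background on some array or designed to a clone; both hold for the Kdr pair too, whose probes were well above background on 9 and 8 arrays. The Tgfbr1 probe outside the spliced one (chr4:47435649-47435708) averaged -0.29 in Eng-Flk1-, 0.52 for Eng-Flk1+, -0.52 for Eng+Flk1+ and -0.85 for Eng+Flk1-. What sets probes of 1 gene apart was not tested.

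**Figure D4:**
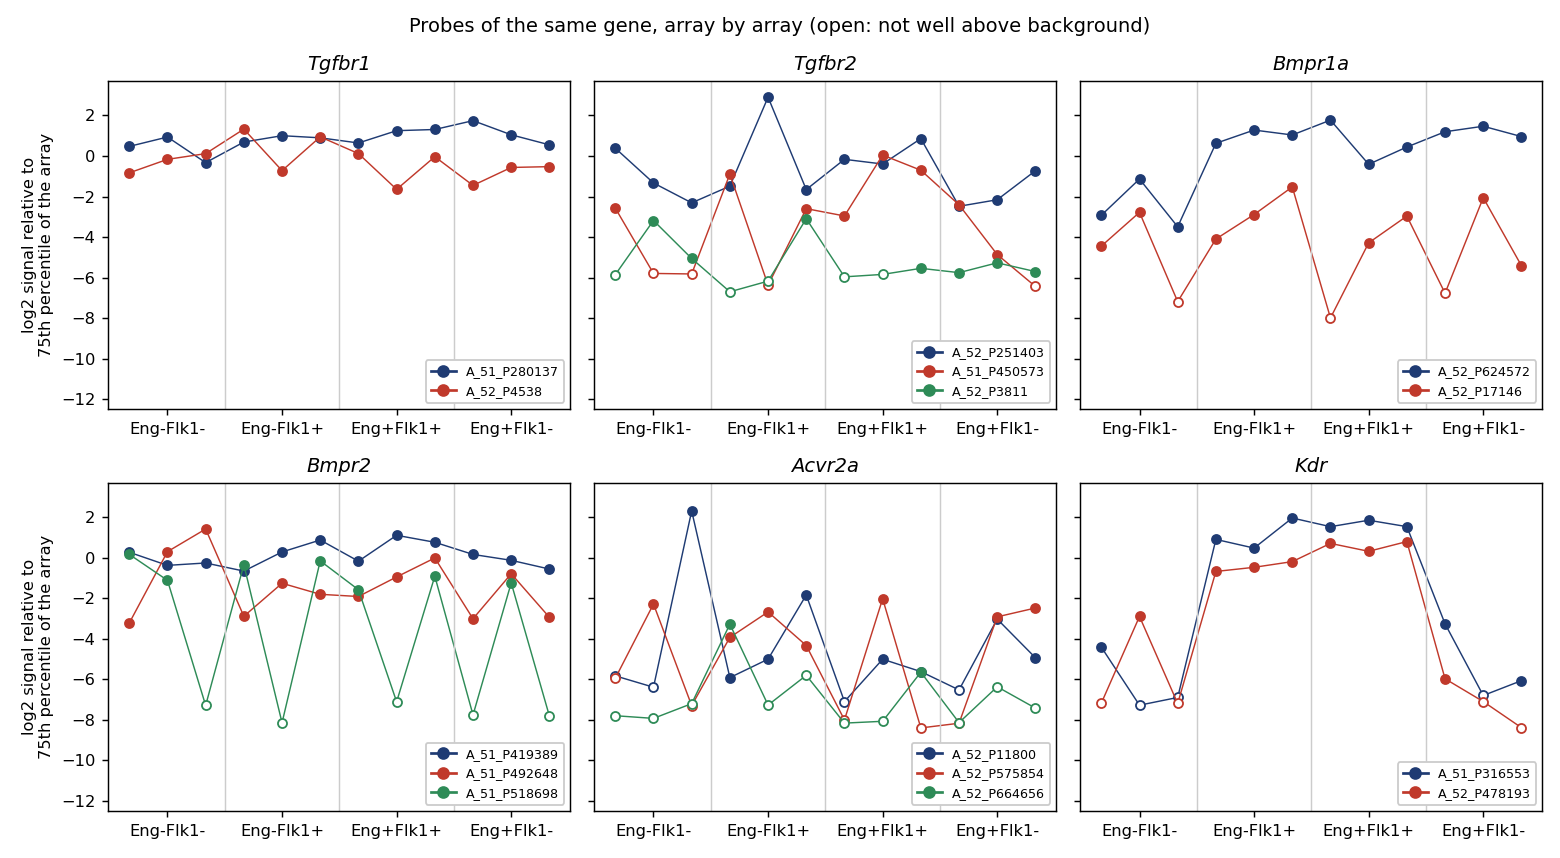
Log2 signal relative to the 75th percentile, array by array, for every probe of the receptors with more than 1 probe and of Kdr; open points are not well above background. The 2 Kdr probes rise and fall together (r = 0.88), while the Tgfbr1 and Bmpr1a pairs do not (r = -0.42 and 0.17). Each Kdr point averages 10 spots, and each receptor point is 1 spot.

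Summed markers of other cell types differed between the same fractions. Signal of the 14 endothelial markers, summed relative to the 75th percentile, ranged from 46.3 to 84.6 on Eng+Flk1+ arrays. It ranged from 15.05 to 21.9 on Eng-Flk1+ arrays, from 5.04 to 5.82 on Eng+Flk1- arrays and from 3.69 to 15.6 on Eng-Flk1- arrays. The 15 visceral endoderm markers summed to 109 to 318 in Eng-Flk1- and to 8.02 to 17.7 elsewhere, although Afp, a defining one, was not well above background in Eng-Flk1- or Eng-Flk1+. Epiblast and neuroectoderm markers summed to 37.0 to 98.2 in Eng-Flk1- and to 6.45 to 19.6 elsewhere. Trophoblast and extraembryonic ectoderm markers summed to 48.6 to 75.7 in Eng+Flk1- and to 5.45 to 26.2 elsewhere. For the 13 mesoderm and allantois markers, summed signal and mean log2 level put Eng-Flk1- at opposite ends. Their summed signal was 35.5 to 50.8 in Eng-Flk1-, above every other array (20.9 to 34.0). Their mean log2 level was lowest in Eng-Flk1-, below every other array. It was -3.48 to -2.97 there, with 8 to 10 markers well above background, against -2.65 to -0.73 on the other arrays, with 11 to 13. This difference in mean level, unlike that in summed signal, runs the same way as the Acvrl1 and Bmpr1a rises over Eng-Flk1-. The list includes Kdr, the gene of a sorting marker. The 12 blood markers overlapped in mean level (-0.69 to 0.69 over all arrays). They summed to 54.1 to 56.3 in Eng+Flk1+, 39.7 to 45.7 in Eng-Flk1+, 28.3 to 63.4 in Eng-Flk1- and 15.7 to 28.9 in Eng+Flk1-. Single blood markers went both ways over Eng-Flk1-. In Eng-Flk1+ (2.61% of all probes called), Etv2 (5.88) and Tal1 (3.78) were called higher and Hbb-bh1 (-5.08) lower. In Eng+Flk1+ (3.03% called) the same genes were called, at 4.33, 3.97 and -5.26. The part of these cell types in the Acvrl1 and Bmpr1a rises was not tested.

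The rest of the pathway was read from lists of ligands, inhibitors, Smads, targets and further receptors. Of the 10 further receptors and co-receptors, such as Acvr1b and the Nodal co-receptor Tdgf1, 9 were tested and 0 passed in any of the 9 comparisons (limma). Of 8 Smad genes 6 were tested and 0 passed. Neither list had a member called, with the same background shares as above. Smad7, an inhibitory Smad, was not well above background on any array of Eng-Flk1-, Eng-Flk1+ or Eng+Flk1-.

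Of 18 ligand genes, all tested, 1 rose in each other fraction over Eng-Flk1-, and it was Bmp4, which induces mesoderm (of all probes 1.77% to 2.6% were called higher in these comparisons). Bmp4 averaged -2.80 ± 1.20 in Eng-Flk1- and 2.02 ± 0.57 in Eng-Flk1+ (SD, n = 3). It averaged 2.10 ± 0.58 in Eng+Flk1+ and 3.40 ± 0.34 in Eng+Flk1-. Its mean Endoglin effect was 3.13 ± 0.45 (limma adjusted p = 0.0199), lost with slide as a block (4.38, 0.869) and without replicate 3 of Eng-Flk1+ (0.0601), replicate 1 of Eng+Flk1+ (0.0517) or replicate 2 of Eng+Flk1- (0.0586). Its rises were 6.20 ± 0.64 in Eng+Flk1- (limma adjusted p = 0.00131), 4.89 ± 0.64 for Eng+Flk1+ (0.00269) and 4.82 ± 0.64 for Eng-Flk1+ (0.00368). Fitted with slide as a block, they were 8.06 ± 1.51, 6.17 ± 1.21 and 5.47 ± 0.91 and did not pass (0.303, 0.267 and 0.0839). Bmp2, another BMP ligand in the list, had a mean Flk1 effect of 2.97 ± 0.61 (0.0384). That call ended on leaving out any array except replicate 2 of Eng-Flk1- or replicate 1 of Eng+Flk1- (2.68 to 3.07, adjusted p 0.0525 to 0.101), and with slide as a block (2.69, 0.489).

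Of 11 secreted inhibitors 10 were tested. Fstl1, a follistatin-like protein, rose by 3.81 ± 0.50 in Eng+Flk1+ (limma adjusted p = 0.00271) and by 3.21 ± 0.50 in Eng-Flk1+ (0.00783) over Eng-Flk1-, and did not pass with slide as a block (3.75, 0.415; 3.39, 0.151). Its mean Flk1 effect was 2.96 ± 0.35 (0.00240), and 3.39 with that block (0.0589). Cer1, an inhibitor made by anterior endoderm, fell in both Endoglin positive fractions, where it was not well above background on any array; Eng-Flk1- was at least 248-fold higher than Eng+Flk1+ (0.00163) and at least 232-fold higher than Eng+Flk1- (0.00335), with the dim side set at the dimmest probe well above background. Both calls ended with slide as a block (0.281 and 0.728). Among 14 Smad target genes, Id2, an inhibitor of basic helix-loop-helix factors, was lower in Eng+Flk1+ than in Eng+Flk1- by 6.88 on the log2 scale (SE 1.06, 0.0274). The Id2 call ended in 7 of 27 other settings (limma adjusted p up to 0.113). Among these were leaving out replicate 1 or 3 of Eng+Flk1+ (0.0947 and 0.0572) or replicate 1, 2 or 3 of Eng+Flk1- (0.0924, 0.0907 and 0.104). Hey1, a transcriptional repressor downstream of Notch, rose in Eng+Flk1+ over Eng-Flk1- by 5.13 ± 1.17 (0.0438), a call lost without any 1 array of the 3 other fractions (0.0503 to 0.145) and under quantile (4.70, 0.0758) or median scaling (4.54, 0.0904). With slide as a block it was 4.09 ± 2.38 (0.992), and 2 of 3 Eng-Flk1- arrays were well above background. Id4 rose in Eng-Flk1+ over Eng-Flk1-, at least 14.1-fold (0.0447), and lost its call on leaving out any array except replicate 2 of Eng-Flk1-, replicate 2 of Eng+Flk1+ or replicate 1 or 3 of Eng+Flk1- (0.0511 to 0.142). It was not well above background on any Eng-Flk1- array, and the call also ended with normexp background correction (0.233), with quantile (0.0641) or median scaling (0.0669) and with slide as a block (0.424).

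Gene symbols whose levels ran most like those of Eng and Acvrl1 were listed as a description, by Pearson correlation over the 12 arrays among 17051 other probes with a gene symbol that were detected on all of them. For Eng they were Hdlbp (0.90), Slc16a13 (0.86), Tspan9 (0.85), Lyl1 (0.85) and Spnb2 (0.85). Lyl1, a helix-loop-helix factor of blood cells, averaged -3.06 in Eng-Flk1-, -1.04 for Eng-Flk1+, 1.25 for Eng+Flk1+ and -1.53 for Eng+Flk1-. For Acvrl1 they were Cttnbp2nl (0.94), Agpat2 (0.94), Ralb (0.94), Apcdd1 (0.92) and Tnnt1 (0.92). Among the receptors, Acvrl1 ran closest to Tgfbr3 (0.71), Bmpr1a (0.69) and Eng (0.67). The 12 arrays share fractions and slides, so these values carry no test.

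Promoter sequence was matched in the RefSeq table (GRCm38.p6) for 8 of the 10 genes; Acvrl1 and Tgfbr3 are named only. The 250 bases before the Eng start are shown because Eng had its highest mean, with no call, in the fraction where endothelial markers were highest. A link between them was not tested. Matches to AGGAAG, a sequence bound by ETS factors, are in capitals on either strand.
Eng, chr2:32646345-32646594, plus strand: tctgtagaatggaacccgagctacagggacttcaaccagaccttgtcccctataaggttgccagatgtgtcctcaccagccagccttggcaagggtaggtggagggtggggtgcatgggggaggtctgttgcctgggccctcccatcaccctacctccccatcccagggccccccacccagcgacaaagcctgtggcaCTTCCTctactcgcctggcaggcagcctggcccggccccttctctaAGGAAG
It holds 2 matches, the first beginning 52 and the second 6 bases before the start, and 0 matches to CAGACA, a Smad element. AGGAAG was found in 29.5% and CAGACA in 17.1% of 32851 promoter windows of that length, both strands counted, and no motif was required to be free of overlap with another. Of the other matched genes, the Tgfbr2 and Bmpr2 windows held 1 AGGAAG match each, as did the second of the 2 Tgfbr1 windows. That Tgfbr1 window also held 1 match to CAGACA, the only receptor window with one. A match is a description of the letters and says nothing of binding.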

How the data were processed

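Scanner files of 12 arrays were used. Per the file headers, the arrays were read with Agilent Feature Extraction 10.5.1.1, which gave for each spot a deposited processed intensity (background subtracted, spatial trend removed) and 0 or 1 flags deposited as scores; probe positions are mm8. The authors' deposited table, used as an alternative, holds intensity divided by the median of each array (found from its values); the design text names GeneSpring GX without settings. From the 43379 non-control spots, outlier spots were set aside, the log2 processed signal minus the 75th percentile of the array was taken, and spots of a probe were averaged. One limma model (3.58.1, in R 4.3.3) with 4 group means was fitted to the 33142 tested probes, for 6 pairwise differences, 2 average effects and the interaction, with Benjamini-Hochberg adjustment at 0.05. Precision is limited by 3 arrays a fraction. All receptor probes are named; list genes are those past the threshold, at most 4 a comparison by lowest p, and the 5 most similar genes for Eng and Acvrl1. A gene with several probes stands in lists and figures by its brightest. The members and lists were chosen with earlier results of these data known. Same-numbered samples were checked for shared deviations and not treated as pairs. The fit was tested on simulated data. Scaling, background correction, filters, slide and replicate blocks, weights and leaving out arrays were tried as alternatives.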

Additional observations from a re-analysis of the deposited data

Results flagged for a closer look

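The gap in the ligand Bmp4 between Endoglin positive and negative fractions differed between Flk1 positive and Flk1 negative cells, by a test of the interaction. The interaction was -6.12 ± 0.90 on the log2 scale (limma adjusted p = 0.0198): with Endoglin, Bmp4 rose from -2.80 to 3.40 among Flk1 negative cells, while the levels among Flk1 positive cells were 2.02 and 2.10. The interaction did not pass with slide as a block (-7.37 ± 1.29, 0.134) or without replicate 1 of Eng-Flk1+ (-5.80, 0.0597), replicate 3 of Eng-Flk1+ (-6.33, 0.0514), replicate 2 of Eng+Flk1- (-6.08, 0.0566) or replicate 3 of Eng+Flk1- (-5.98, 0.0507). A negative interaction was not particular to Bmp4. Of all tested probes 0.549% were called for the interaction (limma), 170 of them negative like Bmp4 and 12 positive.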

How the results depend on the processing

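Over 27 other settings, 2 named folds turned sign, both with slide as a block: Eng in Eng+Flk1- against Eng-Flk1- (-0.055) and Acvrl1 in Eng+Flk1+ against Eng-Flk1+ (-0.044). Counts of called receptor probes, given for Eng+Flk1-, Eng-Flk1+ and Eng+Flk1+ over Eng-Flk1- in turn, were 1, 2 and 2 in the model used. They were 0, 0 and 1 with median scaling and from the authors' table, and 0, 0 and 0 with array weights. With slide as a block they were 0, 0 and 0, with 0 for the mean Flk1 effect, where 0%, 0.157%, 0.0181% and 0.112% of all probes were called. With slide as a random block (correlation within slides -0.199), Eng+Flk1- gave 2, Eng+Flk1+ 4, the mean Flk1 effect 3 and the mean Endoglin effect 2, where 14.3%, 12.4%, 8.47% and 4.29% of all probes were called, so calls rose over the whole array. Normexp correction gave 1 for Eng-Flk1+ and 1 for Eng+Flk1+, while quantile normalization and no filter gave 1 for Eng+Flk1+. With only the fractions compared in the model the counts were 0, 1 and 1. With 1 array left out they ranged from 0 to 1, 0 to 2 and 1 to 3, from 0 to 2 for the mean Flk1 effect and from 0 to 1 for the interaction. Median scaling shifted the median log2 fold of all probes to -0.52, -0.58 and -0.55, and the share of all called probes that were higher from 88.1%, 89.7% and 86.0% to 69.4%, 68.2% and 68.4%; the folds of Acvrl1 and Bmpr1a over Eng-Flk1- stayed positive. Replicate numbers did not pair the samples: 18 same-numbered pairs correlated at -0.0862 to 0.125 and 6 of 12 arrays correlated best with their own number. With the replicate block the counts were 0, 1 and 1: Acvrl1 passed in Eng-Flk1+ and Eng+Flk1+, and Bmpr1a missed the threshold in all 3 (limma adjusted p = 0.0519, 0.0549 and 0.0759). The cause of these changes was not tested. Signal over background limits the Acvr2a probes, the weaker Tgfbr2 and Bmpr1a probes and Smad7, which lie near background.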
